A study of Mus musculus with 12 samples.

Results

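The cells described here are 214 early pachytene spermatocytes of mouse testis (141 KO, 73 WT), 23.0% of the 929 kept cells. They were chosen as the cells that the authors' deposited cell table calls early pachytene and also places in cluster 3 of a k-means clustering into 5 clusters. The study took germ cells from C57BL/6 testes of Zfp541-/- (KO) and WT mice, with 3 libraries of 96 barcodes for each genotype at each of 2 times, 260 h and 360 h after retinoic acid. All mice had been fed WIN 18,446, a blocker of retinoic acid synthesis that halts spermatogonia before meiosis, for 7 days from 2 days after birth, and were then injected with retinoic acid so that meiosis began together. Cells were picked one by one with a mouth pipette, and messenger RNA was counted at its 3′ end as UMIs, the molecular tags that mark single cDNA molecules. The labels do not say how the Zfp541 allele was made or whether each library had its own mouse. A p-value here therefore sets a difference against the spread over libraries, part of which may be technical.

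Every cluster 3 cell came from the 260 h libraries. KO libraries 1, 2 and 3 gave 59, 50 and 32 of these cells, and WT library 3 gave 72. WT library 2 gave 1 cell and WT library 1 gave 0. The other early pachytene cells of WT libraries 1 and 2, 25 and 56 cells, lay in cluster 2, which held 88 cells in all. WT library 3 thus stood apart from the other WT libraries of its group and was grouped with the KO libraries, so that cluster 3 against cluster 2 is almost a split of libraries, and library and cluster cannot be told apart there. In the 4 libraries that held cluster 3, all other kept cells were of the pre-meiotic class, 23, 20 and 18 cells in the KO libraries and 17 in WT library 3. All 96 barcodes were used by kept cells of more than 1 library, and 75 of the 92 barcodes of cluster 3 cells occurred in cluster 3 of at least 2 libraries.

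**Figure D1:**
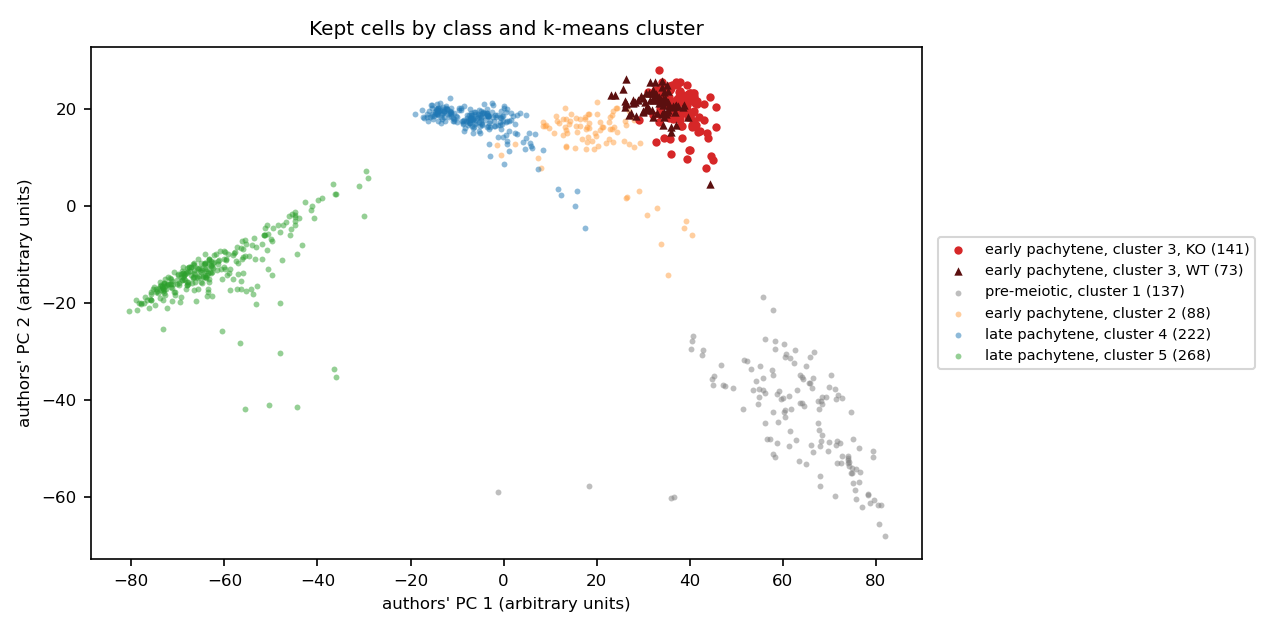
Position of the 929 kept cells on the authors' principal components 1 and 2 (arbitrary units), 1 point per cell, coloured by class and k-means cluster. Cluster 3 lies beside cluster 2, and its WT cells reach lower values on component 1 (median 32.9 in WT library 3, against 36.9 to 38.1 in the KO libraries).

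Pachytene is the stage of meiotic prophase in which homologous chromosomes are fully joined by the synaptonemal complex. Breaks made earlier in the DNA are then repaired by strand exchange on the paired chromosomes. In male cells the X and Y have little homology, and their unpaired chromatin is silenced in the sex body. A spermatocyte that progresses through pachytene turns on a large set of genes for the later sperm tail, acrosome and metabolism. ZFP541 is a zinc finger protein of spermatocytes that binds KCTD19 and histone deacetylases.

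The markers set for cluster 3 were Rad51ap2, Prss50, Meiob and Dmc1. Rad51ap2 (ENSMUSG00000086022.1) lies on mm10 chromosome 12, 11456079 to 11462928, plus strand. Prss50 (ENSMUSG00000048752.7, chromosome 9, 110857967 to 110864629, plus strand) encodes a testis protease. Meiob (ENSMUSG00000024155.8, chromosome 17, 24804289 to 24839788, plus strand) encodes a single-strand DNA-binding protein of meiotic recombination. Dmc1 (ENSMUSG00000022429.11, chromosome 15, 79561497 to 79605109, minus strand) encodes the meiosis-specific strand exchange recombinase. Because these genes mark the cluster together, the 150 bases before the RefSeq start of 3 of them are shown (build GRCm38.p6, chr12:11455905-11456054 on the plus strand, chr9:110857814-110857963 on the plus strand and chr15:79605110-79605259 on the minus strand), in lower case with any motif match in capitals.
Rad51ap2: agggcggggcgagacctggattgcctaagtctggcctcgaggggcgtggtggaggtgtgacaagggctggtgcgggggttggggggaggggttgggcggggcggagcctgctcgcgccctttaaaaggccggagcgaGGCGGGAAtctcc
Prss50: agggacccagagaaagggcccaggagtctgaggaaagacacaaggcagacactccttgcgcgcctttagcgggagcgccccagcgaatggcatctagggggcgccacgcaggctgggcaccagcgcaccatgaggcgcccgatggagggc
Dmc1: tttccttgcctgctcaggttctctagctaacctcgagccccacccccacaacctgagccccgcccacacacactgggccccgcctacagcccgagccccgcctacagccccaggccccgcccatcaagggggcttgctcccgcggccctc
The letter patterns searched, on both strands, were CNCCTCAG, CAACNG and GGCGGGAA. CNCCTCAG, a motif bound by STRA8, stood in 3.88% of 27025 RefSeq promoter windows of the same length. CAACNG, the core bound by MYB proteins, stood in 19.1% of them. Both were in 0 of the 3 windows shown. GGCGGGAA, an E2F core that was chosen after these sequences had been seen, stood in 1.37% of all windows and once in that of Rad51ap2, where the capitals mark it.

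Levels below are CPM, the gene's UMI count summed over the cells of a class in a library, per 1000000 gene UMIs. Rad51ap2 stood at 69.0, 112 and 76.0 CPM in the cluster 3 cells of KO libraries 1 to 3 and at 178 CPM in those of WT library 3. The pre-meiotic cells of the same libraries had 10.5, 13.3, 5.50 and 60.1 CPM in the same order. The lowest cluster 3 library was thus above the highest pre-meiotic one, with a mean log2 ratio of 2.68 ± 0.85 (SD, n = 4 libraries). Prss50 stood at 494, 428 and 390.0 CPM in KO and 211 CPM in WT cluster 3 cells, against 127, 64.1, 73.0 and 77.2 CPM in pre-meiotic cells (mean log2 ratio 2.13 ± 0.56). Its KO cluster 3 levels were all higher than the WT level. Meiob was nearly even over the cluster 3 libraries, at 396, 482 and 398 CPM in KO and 462 CPM in WT, against 102, 62.3, 47.1 and 202 CPM in pre-meiotic cells (2.28 ± 0.88). Dmc1 had the smallest step of the 4 markers, at 180.3, 141 and 134 CPM in KO and 152 CPM in WT cluster 3 cells, against 90.5, 77.4, 61.3 and 79.9 CPM in pre-meiotic cells (0.97 ± 0.11). These are descriptions with no test, since the clusters were made from the expression of these same cells.

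**Figure D2:**
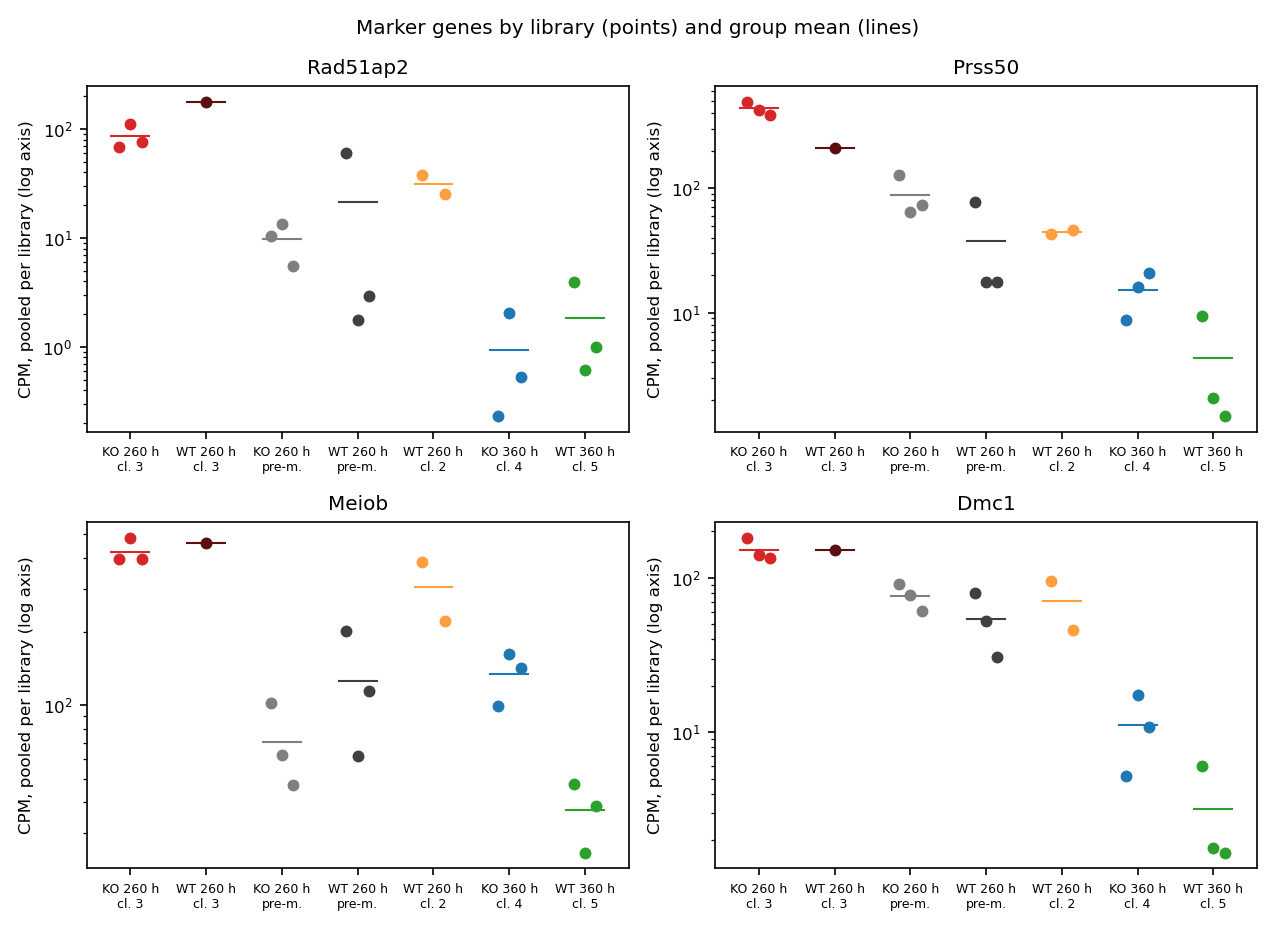
Pooled CPM (log axis) of Rad51ap2, Prss50, Meiob and Dmc1, 1 point per library, with a line at the group mean. Cluster 3 cells (cl. 3) are shown beside pre-meiotic cells (pre-m.), the cluster 2 cells of WT libraries 1 and 2, and the late pachytene clusters 4 and 5 at 360 h. In each panel the lowest cluster 3 library lies above every pre-meiotic library shown, all of 260 h.

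Against the other early pachytene cells, the same markers separated to different degrees. In the cluster 2 cells of WT libraries 1 and 2, Rad51ap2 stood at 37.6 and 25.4 CPM and Prss50 at 43.2 and 45.9 CPM, both below every cluster 3 library. Meiob was at 387 and 220.3 CPM there, and Dmc1 at 95.9 and 46.1 CPM. At 360 h Rad51ap2 was at 0.232, 2.04 and 0.528 CPM in the KO late pachytene cells of cluster 4 and at 3.96, 0.619 and 0.997 CPM in the WT ones of cluster 5. Dmc1 likewise was at most 17.3 CPM in any late pachytene library. Meiob was still detected in most late pachytene cells. With cells thinned to a fixed number of gene UMIs, it had a UMI in 96.1%, 100% and 100% of the KO cluster 4 cells. The shares in the WT cluster 5 cells were 80.7%, 62.6% and 72.0%. For Rad51ap2, Prss50 and Dmc1 the lowest cluster 3 library was above every pre-meiotic library of 260 h. It was also above cluster 2 of WT libraries 1 and 2 and the late pachytene libraries of 360 h. Pre-meiotic cells of 360 h were not compared.

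Rad51ap2 also varied widely among cluster 3 cells. After each cell was thinned to 40000 gene UMIs, which left out 0 cells, it had a UMI in 83.1%, 82.0% and 68.8% of cluster 3 cells of KO libraries 1 to 3 (exact 95% intervals 71.0 to 91.6, 68.6 to 91.4 and 49.99 to 83.9%) and in 98.6% of those of WT library 3 (92.5 to 99.96%). In pre-meiotic cells of the same libraries 8 of 23, 3 of 20, 6 of 18 and 16 of 17 cells had one. In WT library 3 nearly all cells of both classes thus had a Rad51ap2 UMI. These intervals cover counting error only. Unthinned, Rad51ap2 was at 0 in 6, 7 and 7 KO cells and in 0 WT cells of cluster 3. Late pachytene cells of 360 h, in which the pooled level was at most 3.96 CPM, had it in 0 to 7.58% of KO and 1.08 to 16.9% of WT cells per library.

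Levels of pachytene genes are likewise a description and no check of the class name, since the clusters were made from expression. Of the 24 genes of the pachytene list with at least 5 CPM, 10 were at least 2-fold higher in cluster 3 than in the pre-meiotic cells of the same library in all 4 libraries, and 1 was lower. Over all 12984 genes measured, 6.14% were higher by that rule and 14.6% were lower. The median log2 ratio of the list was 1.63, against −0.22 over all genes. Mybl1, a transcription factor that drives pachytene transcription, stood at 134, 154 and 164 CPM in KO and 268 CPM in WT cluster 3 cells, against 33.6, 16.9, 14.9 and 105 CPM in pre-meiotic cells. Piwil1, a piRNA-binding protein of pachytene, stood at 391, 174 and 393 CPM in KO and 762 CPM in WT cluster 3 cells, against 124, 60.5, 76.96 and 388 CPM in pre-meiotic cells. WT library 3 was above every KO library in both classes. Hspa2, a spermatocyte chaperone, was between 1107 and 1405 CPM in all 4 cluster 3 libraries. The 6 marker genes set for late pachytene did not go one way. Ccna1, the meiotic A-type cyclin, was at 2.24, 4.50 and 3.01 CPM in KO and 2.57 CPM in WT, and Pgk2, a glycolytic enzyme of germ cells, had 3.08, 2.74 and 2.58 CPM in KO and 5.97 CPM in WT. In WT late pachytene cells of 360 h Ccna1 stood at 47.8 to 64.2 CPM and Pgk2 at 132 to 248 CPM. Ovol2, a transcription factor, was likewise low at 0.28 to 4.23 CPM in cluster 3. Acr, the acrosomal protease, was at least 2-fold higher than in pre-meiotic cells in all 4 libraries (mean log2 ratio 1.87), Ldhc had a mean log2 ratio of 1.58 and Tbpl1 one of 0.31.

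The machinery of chromosome pairing was higher in part. In the synaptonemal complex and axis list 3 of 16 measured genes were at least 2-fold higher in all 4 libraries and 1 was lower. Over all genes measured these shares were 6.14% and 14.6%. Hormad1, an axis protein of unsynapsed chromosomes, was at 875, 1367 and 864 CPM in KO and 665 CPM in WT cluster 3 cells, against 152, 159, 68.3 and 145 CPM in pre-meiotic cells. Sycp3, the axial element protein, had a mean log2 ratio of 2.47, and Sycp2, its partner, one of 1.65. Smc3, a cohesin subunit of all dividing cells, was the lower one, at −2.04. Sycp1, the transverse filament protein, was among the most abundant transcripts, with 1837, 1970 and 2581 CPM in KO and 1660 CPM in WT cluster 3 cells, and was at least 2-fold higher than in pre-meiotic cells in the KO libraries but not in WT library 3 (log2 ratio 0.78 there). In the telomere list, 3 of 7 genes were higher and 0 lower: Majin, Terb1 and Spdya, which tether telomeres to the nuclear envelope, with mean log2 ratios of 1.98, 1.603 and 2.22. Of the 5 genes of the ZFP541 complex 2 were higher, Zfp541 itself (1.90 ± 0.74) and Kctd19, which encodes its partner (3.04 ± 0.89), and 0 were lower.

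Of 24 strand exchange genes, 6 were higher and 3 lower (12.5%), where 6.14% of all genes were higher and 14.6% lower. Besides Rad51ap2 and Meiob, the higher ones were Mnd1 and Psmc3ip, which form the HOP2-MND1 partner of DMC1, Hsf2bp, which brings recombinases to breaks with BRCA2, and Fignl1, with mean log2 ratios of 2.15, 2.12, 1.76 and 1.35. The lower ones were Exo1, a resection nuclease, Atm, the break-sensing kinase, and Swsap1, at −2.66, −2.59 and −2.09. Of 14 crossover genes, 4 were higher (Msh4, Hfm1, Mlh3 and Ccnb1ip1, mean log2 ratios of 2.17, 2.12, 1.33 and 1.27), and 1 was lower, X-linked Tex11 at −3.32. The lower shares of these 2 lists, 12.5% and 7.14%, rest on 3 genes and 1 gene. Whether they differ from the 14.6% of all genes was not tested. Of 10 genes for break formation, 0 were higher and 2 were lower, Rec114 (−2.16) and Gm960 (−1.95), both partners of the break machinery.

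Genes of earlier stages were lower. In the list for spermatogonia and meiotic entry 14 of 19 measured genes were at least 2-fold lower in all 4 libraries and 1 was higher, with a median log2 ratio of −2.85. Kit, the receptor of differentiating spermatogonia, was at 6.16, 13.5 and 11.6 CPM in KO and 2.85 CPM in WT cluster 3 cells, against 79.0, 231, 101 and 16.3 CPM in pre-meiotic cells. Dmrt1, a transcription factor of mitotic germ cells, was at 33.7, 25.8 and 27.1 CPM in KO and 40.8 CPM in WT, against 361, 370.1, 387 and 336 CPM. Cluster 3 levels of both genes lay below every pre-meiotic level of the same libraries. Id4, named for spermatogonial stem cells, was the higher one (mean log2 ratio 1.77). Of 20 DNA replication genes, 11 were lower and 0 higher, among them Cdc6, the replication licensing factor (−3.06). Genes of the sperm tail were higher. In the axoneme list, 20 of 38 measured genes were higher and 0 lower, including Spag17, a central pair protein, at 139, 101 and 129 CPM in KO and 167 CPM in WT against 10.1, 12.5, 8.64 and 23.0 CPM. In the piRNA list 2 of 22 genes were higher and 1 was lower, and in the germ-cell metabolic list 1 of 12 was higher and 1 lower, with median log2 ratios of 0.94 and 1.51. Over all genes measured, 6.14% were higher and 14.6% lower by the same rule, so the higher shares of these last 2 lists, 9.09% and 8.33%, were near that of all genes.

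Among genes of at least 50 CPM, Kcnk10, a potassium channel, had the widest step upward in the library where its step was smallest (log2 ratio 3.23). It was at 94.5, 63.9 and 162 CPM in KO and 169 CPM in WT cluster 3 cells, against 6.29, 5.78, 13.4 and 17.2 CPM. By that measure it was followed by the dynein heavy chain Dnah7a, Spag17 and Lrriq1. Dnah7a has near copies (Dnah7b and Dnah7c), so reads could have been split between them. Fsip2, a fibrous sheath protein, was at 188, 187 and 158 CPM in KO and 374 CPM in WT cluster 3 cells, against 16.1, 14.2, 7.85 and 68.2 CPM. Kcnk10, Spag17, Lrriq1 and Fsip2 were each higher in cluster 2 of WT libraries 1 and 2 than in any cluster 3 library, with Fsip2 at 474 and 506 CPM there.

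The share of X-linked transcripts was lower in every cluster 3 cell than in every pre-meiotic cell of the same library. X-linked genes took a median of 0.418, 0.379 and 0.477% of gene UMIs per cell in cluster 3 of KO libraries 1 to 3 and 0.351% in WT library 3. In pre-meiotic cells they took 2.14, 2.30 and 2.20% in KO and 1.83% in WT. No cluster 3 cell reached the lowest pre-meiotic cell of its library: the highest cluster 3 cell had 0.761% and the lowest pre-meiotic cell of any of the 4 libraries had 1.22%. Of 437 measured X-linked genes, 322 were at least 2-fold lower in all 4 libraries and 0 were higher, with a median log2 ratio of −2.57, while 1568 of 12537 autosomal genes were lower and 797 were higher.

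**Figure D3:**
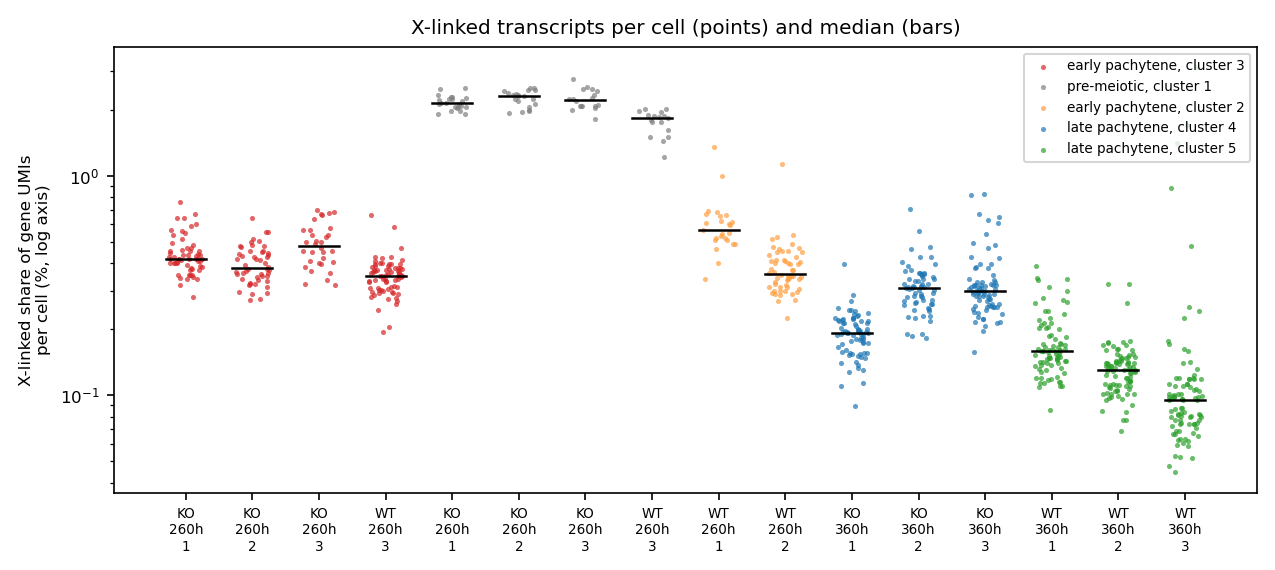
X-linked share of gene UMIs in each cell (percent, log axis), by library and class, with the median as a bar. In the 4 libraries the highest cluster 3 cell has 0.761% and the lowest pre-meiotic cell has 1.22%.

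Among the X-linked genes, Usp26, a testis deubiquitinase, was at 9.10, 9.58 and 17.2 CPM in KO and 7.81 CPM in WT cluster 3 cells, against 324, 424, 334 and 238 CPM in pre-meiotic cells. Ndufa1, a subunit of respiratory complex I, was higher in cluster 3 instead, at 616, 717 and 503 CPM in KO and 469 CPM in WT, against 309, 372, 207 and 256 CPM, though it did not pass 2-fold in all 4 libraries. Fmr1nb, a testis antigen, was at 146, 234 and 128 CPM in KO and 119 CPM in WT, against 87.7, 79.2, 47.9 and 70.0 CPM. Ndufa1 and Fmr1nb are named here because of their values. Of the sex body list 2 of 22 genes were higher (9.09%) and 4 lower (18.2%), near the 6.14% and 14.6% of all genes. The higher ones were H2afx, whose phosphorylated histone coats the sex body, at 2.04 and Mdc1, its reader, at 1.90. X-linked Scml2 had the lowest ratio at −3.70.

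**Figure D4:**
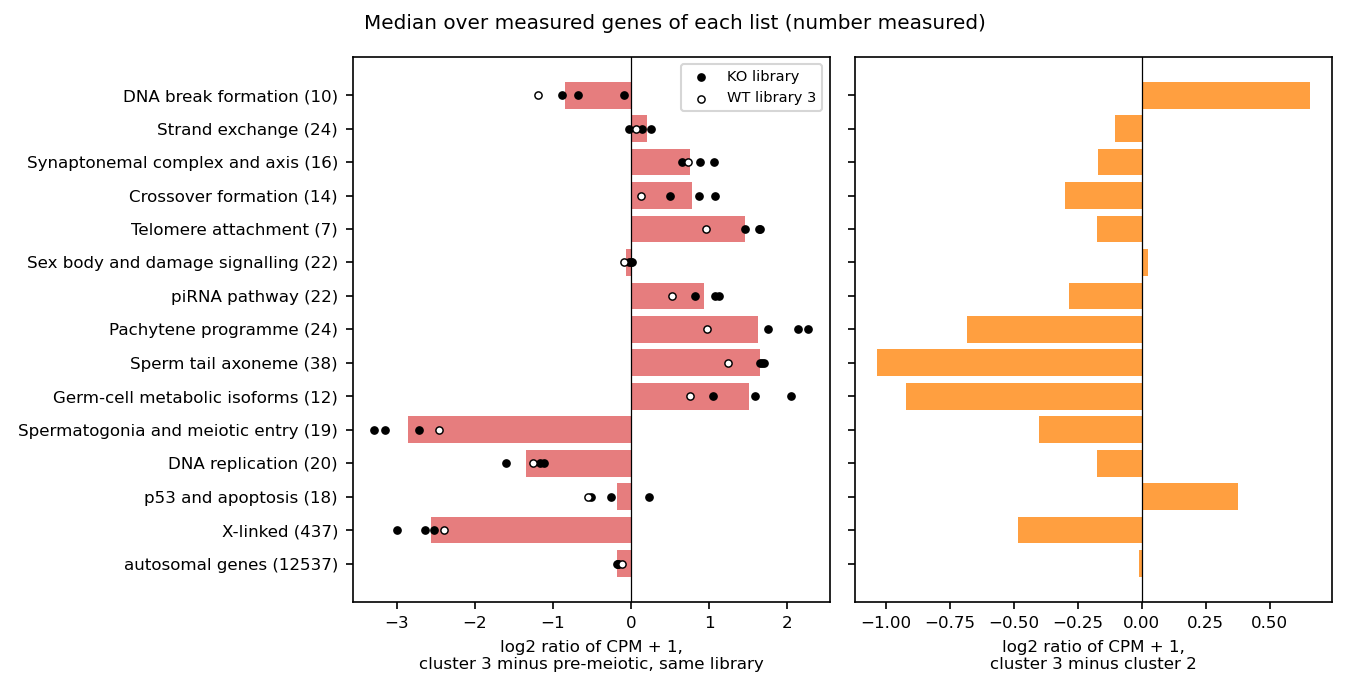
Median log2 ratio of CPM + 1 over the measured genes of each list, with the bar over all libraries and points for single KO (filled) and WT (open) libraries (left, cluster 3 minus pre-meiotic cells), and the median of cluster 3 minus cluster 2 (right). On the left the spermatogonia list and the X-linked genes have the lowest medians, and the pachytene, sperm tail and metabolic lists have the highest. Numbers in brackets are genes measured on the left; the right panel can hold a different number.

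Against cluster 2 of WT libraries 1 and 2, the cluster 3 libraries had less of the sperm tail genes. Of 42 measured axoneme genes, 17 were lower in cluster 3 (libraries apart and at least 2-fold on average) and 0 were higher. Over all genes measured, 6.48% were lower and 6.39% higher. Crisp2, a secreted protein of sperm, was at 26.2, 54.0 and 22.3 CPM in KO and 160 CPM in WT cluster 3 cells, against 289 and 328 CPM in cluster 2. Abcc12, a transporter, was at 5.18, 10.4 and 5.16 CPM in KO and 7.81 CPM in WT, against 57.2 and 69.3 CPM. Of 24 pachytene genes, 5 were lower and 0 higher, and of 23 strand exchange genes 2 were higher and 1 lower. Of 18 p53 and apoptosis genes 4 were higher and 0 lower. Of 200 X-linked genes 4 were higher and 27 lower. Prss50 (211 to 494 CPM, against 43.2 and 45.9 CPM) and Dek, a chromatin protein (63.6 to 174 CPM, against 15.1 and 14.1 CPM), were among the genes with the widest gap upward.

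Some genes that separated the clusters also separated the pre-meiotic cells of the same libraries. Mir6236 had 156, 312 and 89.8 CPM in KO and 115 CPM in WT cluster 3 cells and 257, 315, 205 and 120.1 CPM in pre-meiotic cells of those libraries. WT libraries 1 and 2 had 4.49 and 4.93 CPM in cluster 2 and 5.26 and 8.79 CPM in pre-meiotic cells, so it was apart in both classes. Dek was higher too in pre-meiotic cells of the 4 libraries (360.3 to 780 CPM, against 106 and 83.5 CPM). Markers of other testis cells moved with the split too. Over all genes measured, 6.48% were lower in cluster 3 than in cluster 2 and 6.39% higher (libraries apart and at least 2-fold on average). By that rule 4 of 5 measured Leydig cell genes were lower in cluster 3. The list summed to 17.9 to 30.9 CPM there, against 124.5 and 85.3 CPM in cluster 2. Hsd3b1, a steroid enzyme of Leydig cells, was at 0 to 0.430 CPM in cluster 3, against 22.4 and 12.3 CPM. Of 9 blood and immune genes 6 were lower, with sums of 8.26 to 222 CPM, against 701 and 98.4 CPM. C1qa, of macrophages, was at 0 to 0.430 CPM, against 11.2 and 18.5 CPM. Of 8 Sertoli cell genes 0 were apart by that rule, which at the shares of all genes does not set that list apart from them. Its sums were 398 to 615 CPM, against 664 and 331 CPM, and Amh was at or near 0 in both. The part of these in the differences was not tested. Depth also differed, with medians of 107195, 88496.5 and 66516.5 gene UMIs per cell in KO cluster 3 and 151010 in WT cluster 3, against 63791 and 63728 in cluster 2. Over all cluster 3 cells the range was 48396 to 306540 gene UMIs and 6223 to 12647 detected genes. Gene UMIs per ERCC spike-in UMI had medians of 9.29, 7.79 and 9.20 in KO and 18.3 in WT cluster 3, against 6.61 and 9.30 in cluster 2.

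Zfp541 was detected in both genotypes of cluster 3. It was at 164, 131 and 145 CPM in KO and 148 CPM in WT library 3 (1174, 672, 338 and 1612 UMIs; log2 fold change 0.02 ± 0.35, adjusted p = 0.989 by edgeR's quasi-likelihood test with Benjamini-Hochberg adjustment). The 3′ counts and the unknown deleted part mean that these levels do not check the genotype label. Here and below, ± on a KO against WT log2 fold change is its standard error, worked back from the test statistic, and not an SD over libraries.

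KO and WT cells of cluster 3 were then compared across libraries, with the 3 KO libraries against WT library 3, which was assumed to vary as the KO libraries do. This sets 1 WT library against 3 KO libraries, and that WT library stood apart from the other WT libraries, so genotype and library cannot be told apart in these calls. The clusters were made from expression, so expression also decided that WT library 3 entered and WT libraries 1 and 2 did not. The p-values, here and for Zfp541 above, do not allow for that choice. Of 18449 genes tested, 304 were called at an adjusted p under 0.05 (1.65%), 197 higher (1.07%) and 107 lower (0.58%) in KO. When the early pachytene cells of WT libraries 1 and 2 also entered, 180 of these calls remained. That fit tested 13703 genes, so a call that did not remain may not have been tested there. Without KO library 2 the count was 559 and without KO library 3 it was 1305. Scaled to ERCC spike-in UMIs, 4827 genes were called and 2.46% of them were higher in KO, with the median of all genes at −0.87 on the log2 scale against 0.16. Mitochondrial genes took a median of 2.26, 2.45 and 3.52% of UMIs in the KO libraries and 1.70% in WT library 3. Their part in these calls was not tested.

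Among the genes called higher in KO with a mean of at least 20 CPM, and leaving out predicted genes, the 12 with the largest change were Adgrb2, Ctcfl, Dtx4, Fam81a, Asns, Rasgrp2, Mreg, Iqgap2, Six5, Anp32a, Thy1 and Pbx3. Ctcfl, a germ-cell copy of the CTCF insulator protein, stood at 44.0, 38.3 and 59.7 CPM in KO cluster 3 cells and at 1.38 CPM in WT library 3 (log2 fold change 5.09 ± 0.59, adjusted p = 9.37e-05 by edgeR). Six5, a homeobox factor, stood at 104, 46.9 and 89.8 CPM in KO and 3.77 CPM in WT (4.42 ± 0.55). Pbx3, another homeobox factor, stood at 46.1, 49.5 and 73.5 CPM in KO and 4.14 CPM in WT (3.77 ± 0.52). The KO libraries were all above WT library 3 for these genes. Ctcfl overlaps an antisense gene (Ctcflos), and since the strand of counting is unstated its reads cannot be told apart from that gene. WT libraries 1 and 2 gave 1.68 and 1.48 CPM of Ctcfl, 10.1 and 2.96 CPM of Six5 and 8.41 and 1.97 CPM of Pbx3 in cluster 2 cells, near the level of WT library 3. Six5 was also high in KO late pachytene cells of 360 h, at 163, 177 and 171 CPM, against 3.57, 0.757 and 2.25 CPM in WT. Ctcfl stood there at 6.25, 3.12 and 4.86 CPM in KO, against 1.40, 1.44 and 1.22 CPM in WT.

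Enzyme and signalling genes called higher included Asns, asparagine synthetase, at 100.2, 53.6 and 91.1 CPM in KO and 3.13 CPM in WT (4.72 ± 0.54), and Rasgrp2, a Rap1 exchange factor, at 148, 114 and 105 CPM in KO and 5.06 CPM in WT (4.64 ± 0.50). Rasgrp2 had 82.1, 69.0 and 69.1 CPM in KO and 28.9 CPM in WT pre-meiotic cells, where KO libraries were above WT as well. Adgrb2, an adhesion receptor, had 18.4 to 50.7 CPM in KO and 1 UMI in WT cluster 3 (ratio of pooled CPM 404, 95% counting interval 72.1 to 15970). It was not called with limma-voom, an alternative test, where its log2 fold change was 8.01. Dtx4, a ubiquitin ligase, was at 53.2, 30.7 and 66.2 CPM in KO and 1.56 CPM in WT (4.98 ± 0.61), and Thy1, a surface protein of spermatogonia, at 27.3, 28.4 and 26.6 CPM in KO and 1.84 CPM in WT (3.92 ± 0.64). Mreg was at 31.8 to 33.3 CPM in KO and 1.38 CPM in WT library 3, but 11.8 and 14.1 CPM in cluster 2 of WT libraries 1 and 2, between the KO and WT library 3 levels.

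Genes called lower in KO included Pou2f2, a POU-domain factor, at 4.06, 3.32 and 16.8 CPM in KO and 191 CPM in WT (−4.74 ± 0.58, adjusted p = 0.00246 by edgeR), and Zfp820, a zinc finger protein, at 11.1, 7.82 and 20.6 CPM in KO and 219 CPM in WT (−4.10 ± 0.38). Cluster 2 of WT libraries 1 and 2 had 40.9 and 76.7 CPM of Pou2f2 and 313 and 228 CPM of Zfp820. In pre-meiotic cells Pou2f2 was at 22.02, 5.34 and 37.7 CPM in KO, against 142 CPM in WT library 3, and Zfp820 at 7.34, 12.9 and 8.64 CPM in KO, against 48.3 CPM. March10, a ubiquitin ligase of sperm tails, stood at 12.7, 13.9 and 7.30 CPM in KO and 96.2 CPM in WT (−2.998 ± 0.42). Elavl3, an RNA-binding protein, was at 20.0, 10.8 and 44.2 CPM in KO and 150.0 CPM in WT (−2.64 ± 0.45), while WT libraries 1 and 2 had 13.5 and 15.3 CPM in cluster 2, within the KO range. Crisp2 was at 26.2, 54.0 and 22.3 CPM in KO and 160 CPM in WT (−2.14 ± 0.43), and Ppp1r13l, an inhibitor of p53, at 27.6, 25.2 and 30.9 CPM in KO and 137 CPM in WT. With all early pachytene cells of the 6 libraries of 260 h in the fit, Elavl3, Inafm1, Mreg, Anp32a and Rubcn were no longer called (for Inafm1 a log2 fold change of −1.23, adjusted p = 0.425 by edgeR).

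**Figure D5:**
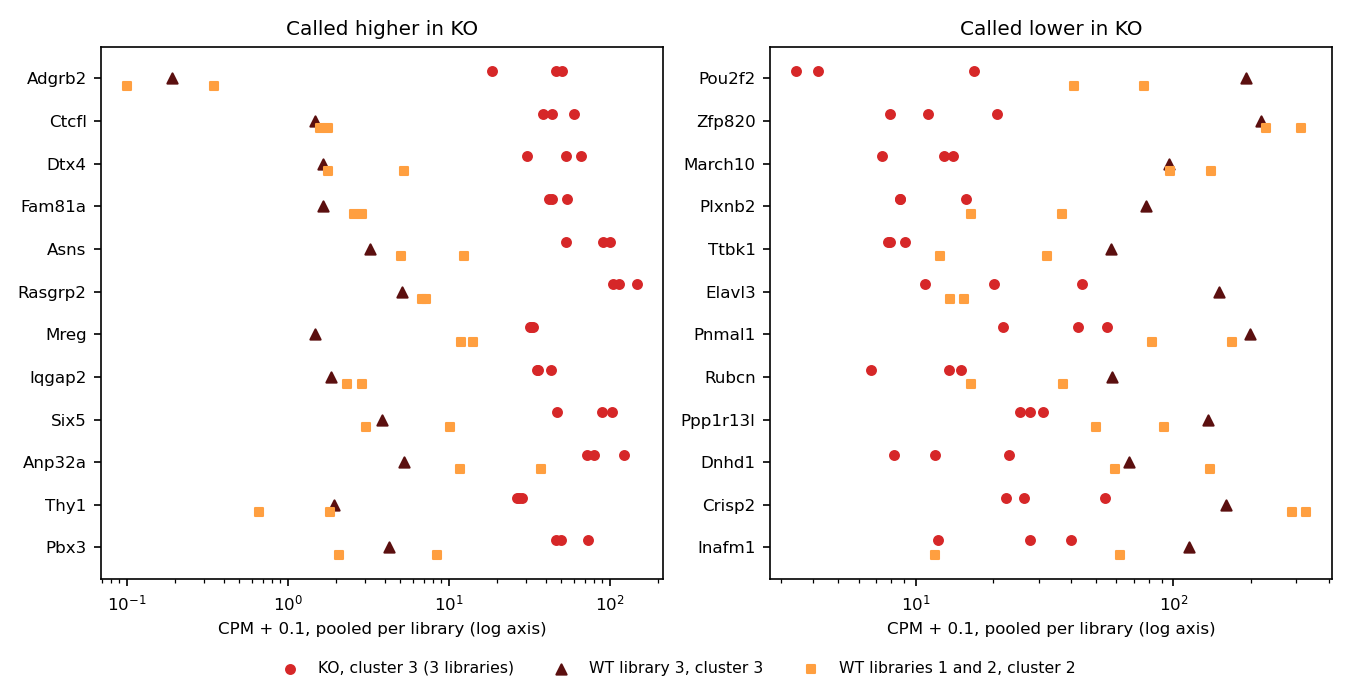
CPM + 0.1 (log axis) in cluster 3 of the 12 genes called higher and the 12 called lower in KO with the largest change, among those with a mean of at least 20 CPM and without predicted genes, 1 point per library: KO libraries (red circles), WT library 3 (dark triangle), and cluster 2 cells of WT libraries 1 and 2 (orange squares). WT library 3 and the KO libraries do not overlap for any of these genes; for Elavl3 both cluster 2 libraries lie within the KO range.

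In the meiotic lists, 3 of 10 break formation genes were higher in KO and 1 was lower, where 1.07% of all genes were higher and 0.58% lower. Zcwpw1, a histone reader of PRDM9-marked sites, was at 314, 384 and 295 CPM in KO and 43.9 CPM in WT (2.96 ± 0.44), Hells, a remodeller that acts with PRDM9, at 472, 607 and 424 CPM in KO and 144 CPM in WT, and Mei1 at 18.2, 7.23 and 20.2 CPM against 1.195 CPM. Spo11, which makes the breaks, was the lower one at 42.4, 34.8 and 37.8 CPM in KO and 111 CPM in WT (−1.50 ± 0.34). Zcwpw1 was 185 and 67.1 CPM in cluster 2 of WT libraries 1 and 2. Of 19 spermatogonia and meiotic entry genes 1 was called, Gm4969, which was higher at 34.6, 59.6 and 18.9 CPM in KO and 0.827 CPM in WT (5.57 ± 0.82, adjusted p = 0.000872 by edgeR). It stayed called in all 12 alternatives, and cluster 2 of WT libraries 1 and 2 had 0 and 1.23 CPM. Gm4969 (chromosome 7, 19099046 to 19118368, minus strand) and Six5 (19094594 to 19098549, plus strand) end next to each other, so with 3′ counts of unstated strand the reads of the pair may not be fully separated. Of 25 strand exchange genes 2 were higher (Rpa3 and Nbn) and 0 lower, and of 14 crossover genes Tex15 was higher. In the axoneme list 3 of 43 were lower (Cfap206, Cfap52 and Armc3) and 1 was higher (Dnaic2, with 2 UMIs in WT). Of 27 pachytene genes 0 were called, of 16 axis genes 0, of 7 telomere genes 0 and of 22 piRNA genes 0. With 1.65% of all genes called, 0 calls in lists of these sizes do not set them apart from all genes. In the metabolic list 3 of 15 genes were lower in KO: Slc2a3, a glucose transporter (152, 144 and 164 CPM in KO and 421 CPM in WT), Eno4, a sperm enolase, and Prps1l1, a testis nucleotide enzyme. Of 467 X-linked genes 0 were higher and 1 was lower, and of 21 p53 and apoptosis genes 0 were called. Mcm2, of the replicative helicase, was the 1 of 20 replication genes called, and was higher. The peritubular genes Pdgfra, Myh11 and Col1a2 were called higher in KO of 10 tested (Col1a2 at 63.3, 58.8 and 23.6 CPM against 9.56 CPM in WT library 3 and 62.8 and 64.6 CPM in cluster 2 of WT libraries 1 and 2). The peritubular list summed to 223, 164 and 97.1 CPM in KO and 33.6 CPM in WT library 3, and its part in the calls was not tested. Of these list genes, Zcwpw1, Mei1, Mcm2, Pdgfra, Myh11 and Col1a2 were not called with all early pachytene cells of 6 libraries. Without KO library 1, Spo11, Hells, Mei1, Nbn, Tex15, Mcm2, Armc3, Slc2a3 and Myh11 were not called. With limma-voom, Dnaic2, Pdgfra and Myh11 were not called.

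Cells of cluster 3 also differed among themselves. Across cells of 1 library, as a description, Piwil1 and Ldhc, the lactate dehydrogenase of germ cells, were correlated (Spearman 0.37, 0.44 and 0.34 in KO and 0.71 in WT), and Rad51ap2 ran against Ldhc (−0.35, −0.29 and −0.48 in KO and −0.47 in WT). The X-linked share ran against the summed axoneme genes (−0.26, −0.51 and −0.45 in KO and −0.46 in WT). The 59, 50, 32 and 72 cells behind these values share a library and differ in depth, and Ldhc itself ran with the gene UMIs per cell at −0.34, 0.25 and −0.21 in KO and −0.33 in WT.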

How the data were processed

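Single germ cells were sequenced as paired 150 bp reads, and the deposited UMI counts per gene and cell were made by the authors. The tools listed, per the submitters' processing notes, are featureCounts 1.6.4, STAR 2.5.3a and UMI-tools 1.0.0, with the mm10 build. Strand and counting settings, and the settings of the clustering, are unstated. The principal component scores, classes and clusters are those of the authors' deposited cell table. UMI counts, without ERCC rows, were summed per library and class. CPM is per 1000000 summed gene UMIs. Log2 ratios of cluster 3 to pre-meiotic cells used CPM + 1 over genes of at least 5 CPM and carry no test. KO and WT were compared with edgeR 4.0.16 (R 4.3.3; quasi-likelihood test, TMM, filterByExpr, Benjamini-Hochberg over all genes, 2 residual degrees of freedom) on libraries with at least 10 cluster 3 cells. limma 3.58.1 and DESeq2 1.42.0 were alternatives. Tested on simulated data for this comparison, with 17021 genes, the fit recovered 69.4% of genes changed by 2 and 97.8% of those changed by 3 on the log2 scale. The changed genes were drawn only from those with a mean of at least 50 UMIs per library pool. Their simulated spread followed the trend with abundance. The rates therefore do not cover scarcer or more variable genes. Named genes were those with the widest steps: 12 each way for cluster 3 against pre-meiotic cells (at least 50 CPM), 8 each way against cluster 2, 12 called each way for KO against WT (mean of at least 20 CPM, no overlap), each without predicted genes, up to 4 called genes per list, and the markers. The members and the gene lists were chosen with earlier results of these data known. Depth was 2328061 to 10879840 gene UMIs per cluster 3 pool. Intervals cover counting error only.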

Additional observations from a re-analysis of the deposited data

How the results depend on the processing

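The 304 genes called between KO and WT cluster 3 cells became 517 with DESeq2, 779 with limma-voom, 584 with cells thinned to 40000 UMIs and 4827 with ERCC scaling, and 203 to 1305 when 1 KO library was left out (559 without KO library 2). Of the calls, 64.8% were higher in KO, against 48.7% with limma-voom, 2.46% with ERCC scaling and 54.4% with the spread shared with the cluster 2 libraries (274 calls), an alternative chosen after seeing the data. The unadjusted p was under 0.05 for 2084 genes. ERCC scaling turned Zfp541 to −1.02 and Dmc1 to −1.01 on the log2 scale. The median log2 ratio of the sex body list against pre-meiotic cells, −0.07, was 0.0209 with thinned cells and −0.257 to 0.0644 with 1 library left out. That of the p53 list ran between −0.454 and 0.13 and that of the peritubular list between −0.0755 and 0.06996 over the same left-out libraries. The causes were not tested. Of the values for single genes and lists, 675 kept their direction and side of the threshold, 44 lost a call, 9 gained one, 4 moved and 6 changed sign.

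Same-numbered libraries did not pair: the correlations of their deviations were −0.09, −0.19 and 0.12. With all early pachytene cells of 6 libraries, 437 genes were called, of which 180 were among the 304, and 535 with a replicate block, of which 205 were among the 304.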

Other observations

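WT library 2 gave 1 cluster 3 cell, which entered no comparison. It had 136315 gene UMIs and 11103 detected genes, and X-linked genes took 0.324% of its UMIs. It held 198 CPM of Rad51ap2, 95.4 CPM of Prss50, 293 CPM of Meiob and 191 CPM of Dmc1. Of the genes that differed between KO and WT, it had 44.0 CPM of Zfp820, 29.3 CPM of Pbx3, 29.3 CPM of Rasgrp2 and 7.34 CPM of Asns. In 1 cell of this depth such levels rest on few UMIs, so they do not place the cell near KO or WT.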
